A study of Mus musculus with 4 samples.

Results

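The laminins and nidogens are 9 of the 12393 genes measured in melanocytes, the pigment cells of skin, cultured from mice without and with the aryl hydrocarbon receptor (AhR), a transcription factor that responds to dioxins and related compounds. The 9 are the alpha chains Lama2, Lama3, Lama4 and Lama5, the beta chains Lamb1 and Lamb2, the gamma chain Lamc1, and the nidogens Nid1 and Nid2, each chosen by its gene symbol and read from its brightest probe set over the 4 arrays. One group is 2 AhR-deficient mice carrying the AhRtm1Bra allele, which lacks exon 2 of Ahr. The other is 2 wild-type C57BL/6 mice. All 4 mice were female. Tail epidermal cells of each mouse were kept in serum-free melanocyte growth medium over 6 to 8 weeks, and the amplified RNA of each culture went onto its own array, so n = 2 in both groups. The deletion is in the germline and so in every cell of these mice, and the labels do not say that the groups shared litters. Values are linear MAS5 signal intensities, with a trimmed mean of 499.9 on every array, and every difference is AhR knockout minus wild type on the log2(signal + 16) scale.

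Laminins are secreted trimers of 1 alpha, 1 beta and 1 gamma chain that join into sheets on the cell surface and found the basement membrane. Nidogens bind the gamma chain encoded by Lamc1 and link the laminin sheet to the collagen IV network. In skin the membrane under the epidermis, on which melanocytes sit, is rich in laminins with the Lama3 and Lamb3 chains, made by keratinocytes, while Lama4 and Lama5 are the main alpha chains of blood vessel membranes and Lama2 is that of muscle and peripheral nerve.

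The start regions of 4 members are shown because these genes differ in direction in the results that follow. RefSeq windows of GRCm38.p6 were held for 5 of the 9 members (Lama2, Lama5, Lamb1, Lamb2 and Nid1), and each was searched over the 250 bases before the start. Sequences run 5′ to 3′, without bases inside the annotated span of the gene. Capitals mark the core of the AhR binding motif, GCGTG, and the GC box, GGGCGG, on either strand.
Lamb1, chr12:31265043-31265145, plus strand: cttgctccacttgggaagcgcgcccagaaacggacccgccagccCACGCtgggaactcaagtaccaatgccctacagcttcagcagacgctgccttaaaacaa
Nid1, chr13:13437352-13437601, plus strand: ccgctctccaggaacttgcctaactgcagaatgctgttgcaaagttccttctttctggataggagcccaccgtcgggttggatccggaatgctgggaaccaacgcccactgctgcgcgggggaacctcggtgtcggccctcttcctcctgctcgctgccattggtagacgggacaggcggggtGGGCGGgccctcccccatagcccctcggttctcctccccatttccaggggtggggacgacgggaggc
Lama5, chr2:180225905-180226109, minus strand: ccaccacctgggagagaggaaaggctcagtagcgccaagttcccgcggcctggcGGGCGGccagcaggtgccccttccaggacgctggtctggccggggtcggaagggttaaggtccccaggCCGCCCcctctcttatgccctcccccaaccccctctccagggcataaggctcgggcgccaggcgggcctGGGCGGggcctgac
Lamb2, chr9:108479612-108479846, plus strand: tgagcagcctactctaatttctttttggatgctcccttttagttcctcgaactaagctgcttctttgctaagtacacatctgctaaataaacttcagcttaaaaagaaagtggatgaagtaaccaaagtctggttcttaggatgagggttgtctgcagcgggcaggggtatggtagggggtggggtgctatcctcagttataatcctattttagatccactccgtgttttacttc

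Across the 250 bases searched, the AhR core matched 1 time, in Lamb1, starting 206 bases before the start used by RefSeq for that window, and 28.2% of all 32851 windows hold it. The longer AhR motif TNGCGTG matched in none of the 5 windows and in 4.1% of all. The GC box, bound by Sp1-type factors, matched 4 times in Lama5, 2 times in Lamb1 and 1 time in Nid1, and 32.7% of all windows hold it. Both Lamb1 matches to it and the nearest of those in Lama5 lie in window bases that overlap the annotated gene (147 bases in Lamb1 and 45 in Lama5) and are not printed. The E-box CACGTG, bound by the melanocyte regulator MITF, and the AP-1 motif TGANTCA matched in none of the 5, against 6.02% and 6.75% of all windows. GC content was 62%, 64.4% and 72.4% in Lamb1, Nid1 and Lama5, and 43.6% and 47.2% in Lamb2 and Lama2, where no motif matched, beside a median of 52.4% over all windows. The Lama2 window overlaps the annotated gene in 249 of its 250 bases, and the Lamb2 window in 15. For Lama2 almost no sequence outside the gene was thus searched. A match of letters is a description and not a binding site.

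Ahr read 241 and 843 in AhR knockout 1 and 2, against 825 and 874 in wild type 1 and 2, and whether its probes lie in the deleted exon was not analysed here. Cyp1b1, a classical AhR target, read 14.0 and 23.1 in the knockout arrays against 1216 and 1410 in the wild-type arrays, with adjusted p = 0.000454 in limma. The 3′ to 5′ signal ratio of the Gapdh control, which rises with shortened RNA, was 1.98 and 11.9 in the 2 knockout arrays, with the high value in AhR knockout 2, against 2.13 and 2.85 in wild type. Among 9 measured melanocyte markers the summed signal was 82044 and 108487 in the knockout arrays, against 70320 and 56058 in wild type. Of the 9, 7 were higher and 2 lower, and none passed in limma. The lower ones were Mitf, at a log2 difference of -0.41, and Kit. Kit read 558 and 273 in the knockout arrays, against 1235 and 900 in wild type. For 12 endothelial markers it was 19872 and 8970 in the knockout arrays, against 23939 and 25841 in wild type.

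Most of the laminin and nidogen genes bright enough to test were lower in the AhR-deficient cultures, with the larger differences in Nid2, Lamb1 and Lama4, but none passed the test over all genes. Of the 9 members, 7 passed the signal filter, which kept the top 60% of genes by mean signal, and Lama3 and Lama5 did not. Of the 7, 5 were lower with both knockout arrays below both wild-type arrays, where 26.7% of all 7436 tested genes were. A difference of at least 2-fold with separated groups was found for 3 of the 7, all lower, against 10.3% of tested genes. In limma 0 of the 7 passed an adjusted p of 0.05, where 0.753% of tested genes were called lower and 0.202% higher, and 4 of the 7 were lower at an unadjusted p under 0.05, against 12.9% of tested genes. The median log2 difference of the 7 was -0.79, beside 0.0055 for all tested genes. Taken by animal, that median was -0.69 for AhR knockout 1 and -0.94 for AhR knockout 2. The calls moved with single arrays. Without AhR knockout 1, Lama4, Lamb1, Nid1 and Nid2 passed (4 of 7), all lower, where 11.1% of all tested genes were called lower. Without AhR knockout 2, Lama4, Lamb1 and Nid2 passed (3 of 7), all lower, where 10.8% were called lower. Without wild type 1 or without wild type 2, 0 of 7 passed, where 1.49% and 0.215% of all tested genes were called lower. In a culture of mixed cells, fewer cells of a type and less RNA per cell cannot be told apart.

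**Figure D1:**
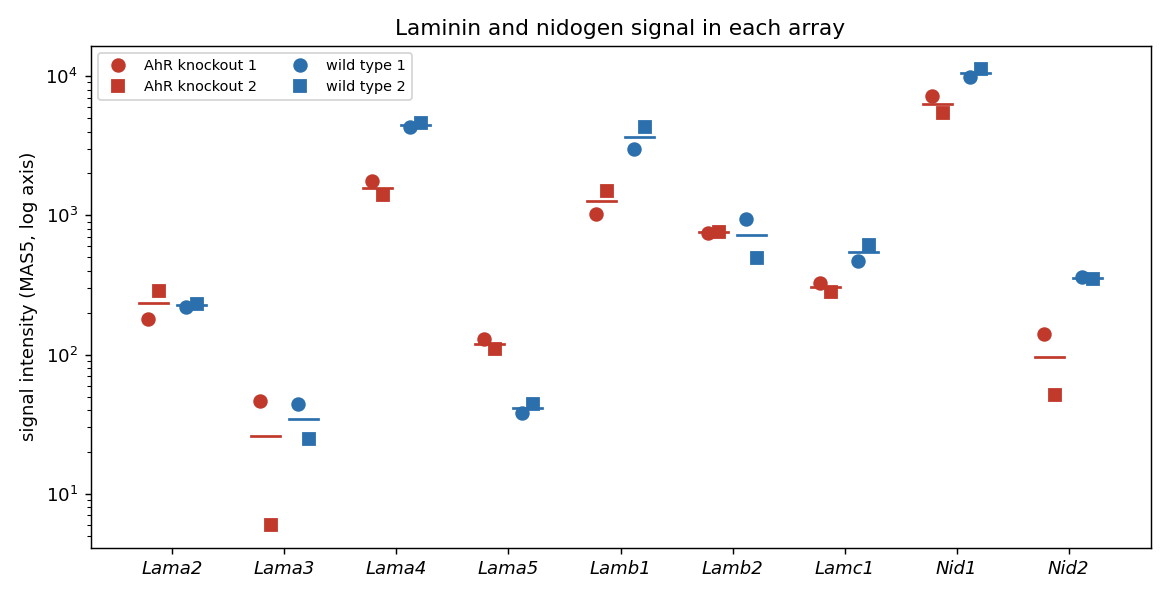
MAS5 signal intensity (log axis) of the 9 laminin and nidogen genes in each array, with AhR knockout in red and wild type in blue, circles for animal 1, squares for animal 2 and bars for group means. For Lama4, Lamb1, Lamc1, Nid1 and Nid2 both knockout points lie below both wild-type points, for Lama5 both lie above, and for Lama2, Lama3 and Lamb2 the groups overlap.

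Among the alpha chains, Lama4, a chain of endothelial and mesenchymal laminins, was lower in both knockout arrays. It read 1757 and 1404 in AhR knockout 1 and 2, against 4326 and 4624 in wild type 1 and 2. The groups did not overlap, and the knockout mean of 1581 ± 250.1 was 0.353 times the wild-type mean of 4475 ± 211 (SD, n = 2 each). On the log2 scale the difference was -1.50 ± 0.33 (SE, as in all such values here), and limma's adjusted p = 0.065 missed the threshold. The dimmer Lama4 probe set read 9.41 and 42.5 in the knockout arrays, against 54.6 and 48.8 in wild type. It was also lower in both knockout arrays, but AhR knockout 2 lay close to the wild-type values.

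Lama5, the alpha chain of the most widespread laminins of adult epithelia and vessels, went the other way. It read 129 and 110 in the knockout arrays, against 38.3 and 44.3 in wild type, and the groups did not overlap. The knockout mean of 119 ± 13.5 was 2.90 times the wild-type mean of 41.3 ± 4.25 (SD, n = 2 each). Its mean signal over the 4 arrays, 80.4, lay just under the lowest value tested, 81.1, so it entered no test in the main setting. Ranked by mean log2 signal instead, a setting added after the data were seen, it was also left out, at 6.46 against a lowest tested value of 6.52. Without the signal filter its log2 difference was 1.24 ± 0.35, with adjusted p = 0.22 in limma, where 4.01% of all 12393 genes were at least 2-fold higher with separated groups. The second Lama5 probe set was dimmer still, with 14.8 and 35.5 in the knockout arrays against 21.1 and 5.76 in wild type, and there the groups overlapped.

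Lama4 and Lama5 thus lay on opposite sides of the wild-type level in each knockout array. Relative to the wild-type mean, Lama5 minus Lama4 was 2.68 and 2.80 in AhR knockout 1 and 2 on the log2 scale, against -0.028 and 0.028 in wild type 1 and 2. The shift averaged 2.74 ± 0.083 (SD, n = 2), and an exact two-sided permutation of 2 against 2 arrays cannot give a p below 0.333. The pair was chosen for its opposite directions, so the shift is a description.

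Lama2, the alpha chain of muscle and Schwann cell membranes, showed no separation. It read 181 and 286 in the knockout arrays, on either side of 220 and 232 in wild type. The log2 difference was 0.014 ± 0.37 with adjusted p = 0.98 in limma. Lama3, the alpha chain of the epidermal membrane, was dim, with 46.2 and 5.99 in the knockout arrays against 44.1 and 25.0 in wild type, and was not tested. The knockout arrays enclosed both wild-type values, and the summed signal of 9 keratinocyte markers, the genes of the cells that make this chain in skin, was 1692 and 442 in the knockout arrays against 571 and 489 in wild type. Krt5, Krt14 and Krt6a carried the high sum of AhR knockout 1. The other 6 markers summed to 368 and 316 in the knockout arrays, against 458 and 368 in wild type, with Krt10 highest in AhR knockout 2 and Dsp in wild type 1. Whether these markers bear on Lama3 was not tested.

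**Figure D2:**
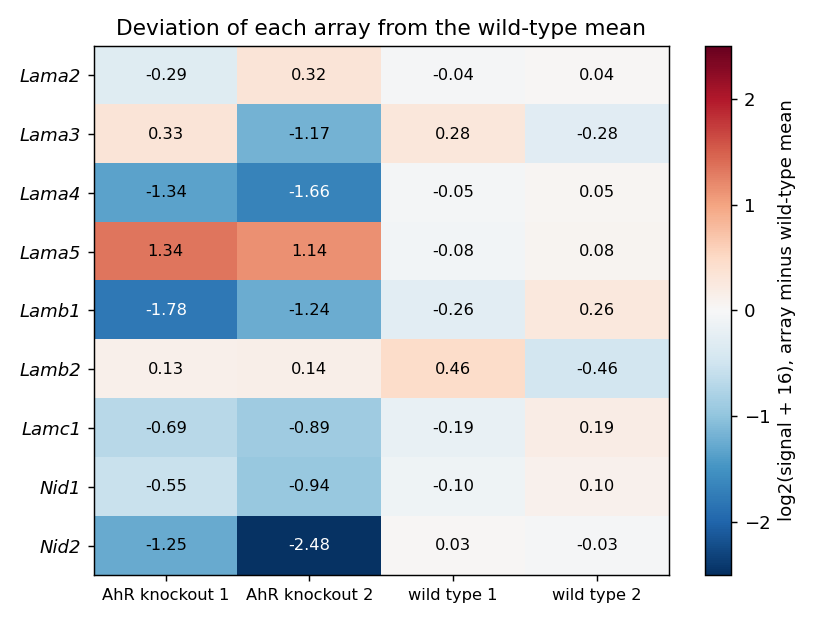
Log2(signal + 16) of each array minus the mean of both wild-type arrays, for the 9 genes (rows) in the 4 arrays (columns), with blue for lower and red for higher. Nid2 is the lowest cell, at -2.48 in AhR knockout 2, and Lama5 is the one gene above 1 in both knockout arrays.

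Of the beta chains, Lamb1, the partner of Lama4 and Lama5 in most vessel laminins, was lower. It read 1027 and 1500 in the knockout arrays, against 2984 and 4279 in wild type. The groups did not overlap, and the knockout mean of 1264 ± 334 was 0.348 times the wild-type mean of 3632 ± 915 (SD, n = 2 each). The log2 difference was -1.51 ± 0.37, with adjusted p = 0.078 in limma. Lamb1 had 3 probe sets, and all pointed the same way. The second read 184 and 111 in the knockout arrays, against 507 and 687 in wild type, and the third read 14.1 and 3.58, against 45.4 and 34.3. Their log2 differences were -1.92 and -1.19, so the gene was lower by each of its probe sets, and the first of these had adjusted p = 0.090 when every probe set was tested by itself. The brightest Lamb1 probe set carries the suffix that marks probes shared by more than 1 transcript, and which transcripts share it was not analysed here.

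Lamb2, the beta chain of nerve, muscle and kidney membranes, did not follow Lamb1. It read 752 and 756 in the knockout arrays, between the wild-type values of 947 and 495. Its log2 difference was 0.13 ± 0.41 with adjusted p = 0.87 in limma. The spread between the wild-type animals, an SD of 319.6, was wider than the difference between the group means of 754.0 and 721.2. Relative to the wild-type mean, Lamb2 minus Lamb1 was 1.91 and 1.38 in the knockout arrays on the log2 scale, against 0.72 and -0.72 in wild type. The knockout arrays lay above both wild-type arrays, and above the nearer one, wild type 1, by less than the span between the wild-type arrays.

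Lamc1, the gamma chain found in most laminins, was lower by less than Lama4 or Lamb1. It read 327 and 283 in the knockout arrays, against 469 and 615 in wild type. The groups did not overlap, and the knockout mean was 0.562 times the wild-type mean. Its log2 difference was -0.79 ± 0.36, with adjusted p = 0.25 in limma. A dim second probe set read 9.05 and 13.1 in the knockout arrays, against 8.25 and 47.8 in wild type, with overlapping groups.

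The nidogens were both lower in the knockout arrays. Nid1, the main nidogen of most basement membranes, read 7190 and 5459 in the knockout arrays, against 9800 and 11296 in wild type. The groups did not overlap, and the knockout mean was 0.600 times the wild-type mean. Its log2 difference was -0.75 ± 0.28, with adjusted p = 0.18 in limma. The second Nid1 probe set read 510 and 388 in the knockout arrays, against 885 and 758 in wild type, a log2 difference of -0.86. Both probe sets of Nid1 thus kept the groups apart.

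Nid2, a second nidogen that is enriched in vessel membranes, had the largest log2 difference of the 9 genes, each by its brightest probe set. This was with all 4 arrays and 16 added to the signal, and the second Lamb1 probe set differed by -1.92. Nid2 read 140 and 51.0 in AhR knockout 1 and 2, against 364 and 349 in wild type 1 and 2. The knockout mean of 95.7 ± 63.3 was 0.269 times the wild-type mean of 357 ± 10.2 (SD, n = 2 each). The groups did not overlap, and AhR knockout 2 was far lower than AhR knockout 1. The log2 difference was -1.86 ± 0.45, with adjusted p = 0.074 in limma. Without AhR knockout 2, the array with the Gapdh ratio of 11.9, it was -1.25, smaller in size than Lamb1 at -1.78 and Lama4 at -1.34, and without AhR knockout 1 it was -2.48. With 64 added to the signal it was -1.46, beside -1.48 for Lamb1 and -1.47 for Lama4.

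**Figure D3:**
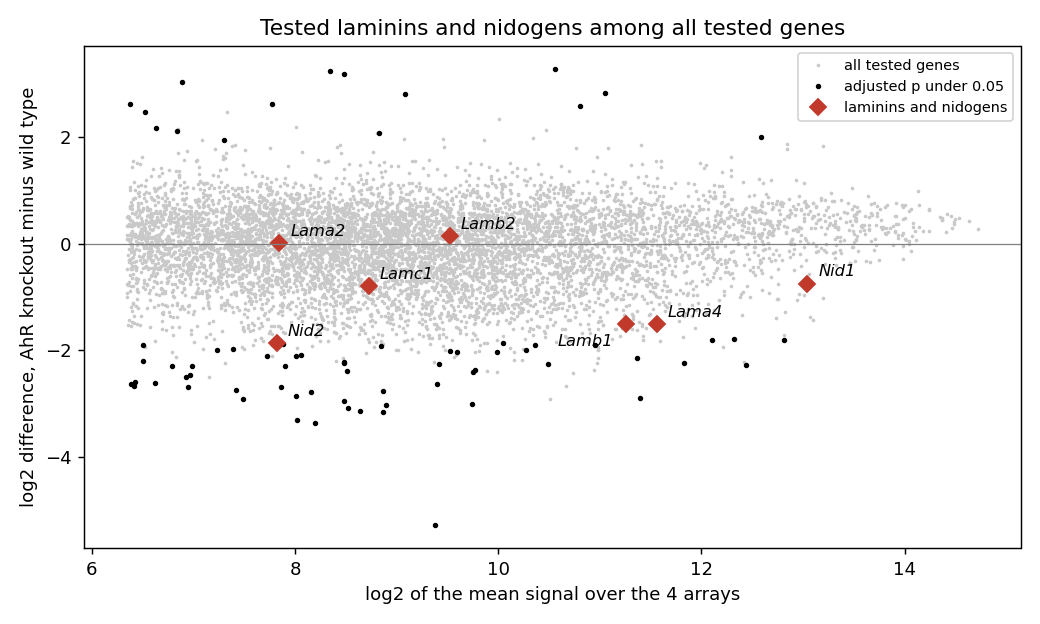
Log2 difference between AhR knockout and wild type against the log2 of the mean signal for all 7436 tested genes (grey), with genes at an adjusted p under 0.05 in black and the 7 tested laminins and nidogens as red diamonds. Nid2, Lamb1 and Lama4 lie between -1.86 and -1.50, near the edge of the cloud, and Lama2 and Lamb2 lie at its middle.

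The profiles over the 4 arrays placed the tested members other than Nid2 in pairs of nearest members. By the root mean square distance between centred log2 values, Lamc1 and Nid1 were nearest to each other, at 0.096. Lama4 and Lamb1 were nearest to each other at 0.34, and Lama2 and Lamb2 at 0.42. The nearest member to Nid2 was Lama4, at 0.37. Among genes outside the family, those nearest to Lamc1 were Hbs1l, Rnf141, Cachd1, Ppp4r3a and Sh2d3c, at 0.032 to 0.061, closer than Nid1. With 4 arrays such distances are descriptions only.

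Lama1, Lamb3 and Lamc3 were dim. Lama1, the alpha chain of early embryos, read between 1.23 and 3.43 on all arrays. Lamb3, the beta chain of the epidermal laminin, read 62.4 and 1.97 in the knockout arrays, against 20.2 and 17.4 in wild type. It was high in AhR knockout 1 alone. Lamc3, a gamma chain of restricted expression, read 58.6 and 54.4 in the knockout arrays, against 20.8 and 25.5 in wild type. Its second probe set read 54.1 and 35.9, against 9.32 and 22.5, so both kept the groups apart, at log2 differences of 0.89 and 0.95. All 3 genes lay under the signal filter and were not tested.

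Of the 6 measured collagen IV chains, which form the network that nidogens link to laminins, Col4a1, Col4a2 and Col4a5 were tested, and all 3 were lower with separated groups while none passed. Col4a3, Col4a4 and Col4a6 were too dim to test, and their log2 differences were 0.20, 0.78 and 0.53. Col4a1, the major chain with Col4a2, read 5779 and 4434 in the knockout arrays, against 10416 and 10728 in wild type, a log2 difference of -1.06 ± 0.28 with adjusted p = 0.095 in limma. Col4a2 read 2523 and 2227 in the knockout arrays, against 5195 and 5398 in wild type, a log2 difference of -1.15 ± 0.31 with adjusted p = 0.096. By array, Col4a1 differed by -0.87 and -1.25 in AhR knockout 1 and 2, and Col4a2 by -1.06 and -1.24. Col4a5, a minor chain, differed by -1.56 ± 0.45 and Fbln2, a fibulin that binds nidogens, by -1.16 ± 0.40. Agrn, the proteoglycan agrin that binds laminins and dystroglycan, went the other way, with 2118 and 3450 in the knockout arrays against 1412 and 1062 in wild type and a log2 difference of 1.13 ± 0.38. Of 19 measured partners 11 were tested, and their median log2 difference was -0.32, with 6 below and 5 above 0. None (0 of 11) passed in limma, and at an unadjusted p under 0.05 there were 4 below and 1 above, where 12.9% of all tested genes were below and 7.68% above. Perlecan, encoded by Hspg2, differed by 0.16.

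Laminin receptors lay on both sides of 0. Itgb1, the beta subunit shared by most laminin-binding integrins, read 412 and 383 in the knockout arrays, against 1054 and 1606 in wild type. Its log2 difference was -1.67 ± 0.38, with adjusted p = 0.067 in limma. Itga6, its partner in a major laminin receptor, read 3612 and 3750 in the knockout arrays, against 5889 and 6854 in wild type, a log2 difference of -0.78 ± 0.30. Utrn, the utrophin that ties dystroglycan to actin, differed by -1.47 ± 0.44. Cd151, a tetraspanin that associates with laminin-binding integrins, differed by 0.66 ± 0.25 and Rpsa, known both as a laminin receptor and as a ribosomal protein, by 0.68 ± 0.27. Of 19 measured receptors 13 were tested, and their median log2 difference was 0.037, with 6 below and 7 above 0. None (0 of 13) passed in limma, and at an unadjusted p under 0.05 there were 3 below and 2 above, beside the same shares of all tested genes.

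The 7 tested enzymes that put laminin-binding sugars on dystroglycan had a median log2 difference of 0.42, with 3 below and 4 above 0. None (0 of 7) passed in limma, and at an unadjusted p under 0.05 there were 0 as well. The 5 with the smallest p were B3galnt2, at a log2 difference of -0.77, Pomgnt1 at 0.67, Pomk at 0.57, Pomt1 at 0.47 and Pomt2 at 0.42. Of 5 measured netrins, secreted or anchored proteins whose tip resembles that of laminins, Ntng1 alone was tested. It read 180 and 237.5 in the knockout arrays, against 520 and 409.5 in wild type, a log2 difference of -1.10 ± 0.37 with adjusted p = 0.14 in limma.

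**Figure D4:**
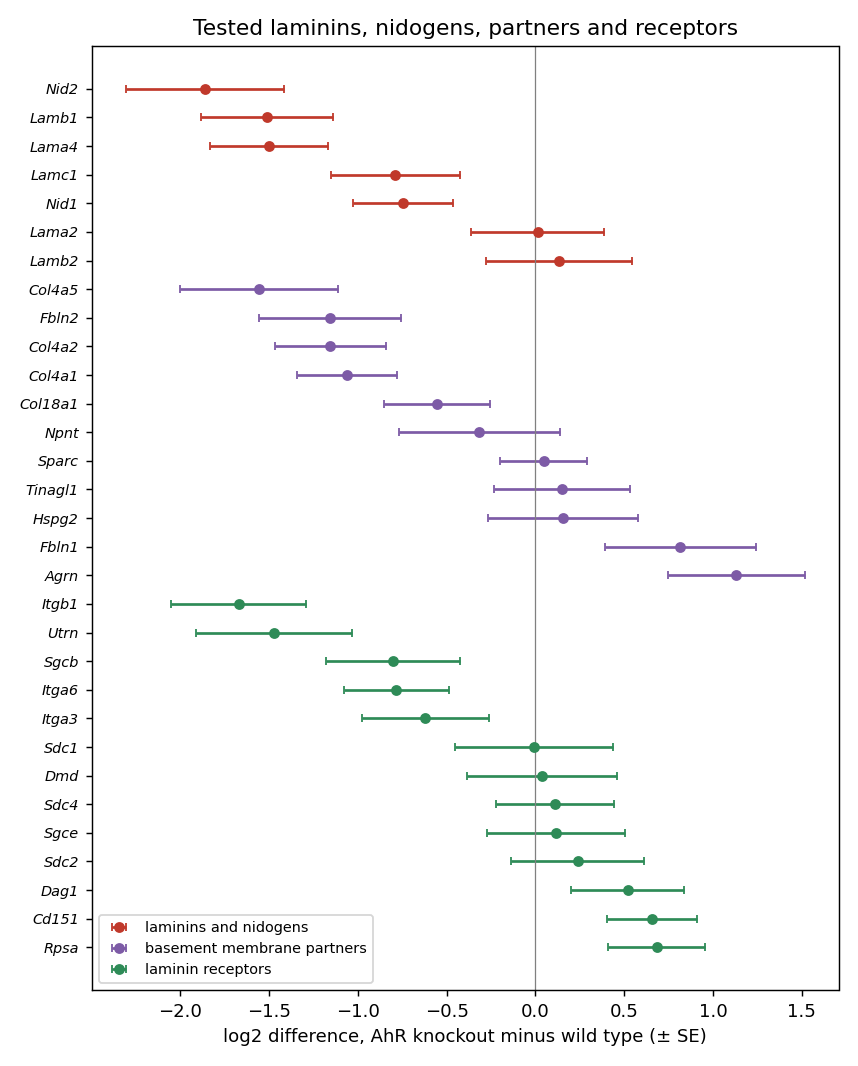
Log2 difference between AhR knockout and wild type with its SE from limma for the tested laminins and nidogens (red), basement membrane partners (purple) and laminin receptors (green). The lowest values are Nid2 at -1.86, Itgb1 at -1.67 and Col4a5 at -1.56, and the highest is Agrn at 1.13.

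Of 11 tested endothelial markers, genes of cells that make vessel laminins, 9 were lower and 2 higher, and 0 of 11 passed in limma. Their median log2 difference was -0.71 for AhR knockout 1 and -2.00 for AhR knockout 2. AhR knockout 2 is also the array with the Gapdh ratio of 11.9, and its part in this order was not tested. The medians over all tested genes had that order as well, at 0.079 and -0.029. The share of all tested genes with that order was not counted. Of the 7 tested members, Nid2 had that order, with -1.25 and -2.48. By their brightest probe sets Lama4 had it with -1.34 and -1.66, Nid1 with -0.55 and -0.94, and Lamc1 with -0.69 and -0.89. The second Nid1 probe set had it too, with -0.67 and -1.05. The dim second probe sets of Lama4, with -1.41 and -0.21, and of Lamc1, with -0.65 and -0.43, had the opposite order. Lama2 and Lamb2 did not have the endothelial order, while Lamb1 also differed between its probe sets. The brightest Lamb1 probe set had the opposite order, with -1.78 and -1.24. The others had the endothelial order, with -1.60 and -2.25, and with -0.88 and -1.51. Emcn, the endothelial endomucin, read 3321 and 1041 in the knockout arrays, against 7391 and 10176 in wild type, while Cldn5, an endothelial junction protein, read 4688 and 2845, against 1510 and 1555. Vwf, the endothelial clotting factor, read at most 25.8 on any array. The summed signal of 10 fibroblast markers was 535 and 439 in the knockout arrays, against 1010 and 1201 in wild type. Of these, 3 were tested, with 2 lower and 1 higher. Col3a1 alone passed in limma, as lower with adjusted p = 0.041, where 0.753% of all tested genes were called lower. It read 95.1 and 50.5 in the knockout arrays, against 372 and 439 in wild type. For 10 mural markers the summed signal was 3499 and 4071 in the knockout arrays, against 3942 and 2992 in wild type. Among the 4 tested mural markers 2 were lower and 2 higher, and none passed in limma. For 8 leukocyte markers the summed signal was 3825 and 3412 in the knockout arrays, against 1697 and 1718 in wild type. Without Lyz2 it was 1196 and 636, against 1028 and 837. Among the 4 tested leukocyte markers, Lyz2 included, 3 were higher and 1 lower, and none passed in limma. For 6 Schwann and glial markers the summed signal was 3515 and 6495 in the knockout arrays, against 1875 and 2128 in wild type. Without S100b it was 648 and 813, against 976 and 741. Among the 3 tested, S100b included, 2 were higher and 1 lower, and none passed in limma. The part of these cells in the laminin and nidogen differences was not tested.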

How the data were processed

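RNA of 4 melanocyte cultures was amplified, biotin labelled and hybridised to 1-colour arrays, as the labels' protocols state. Intensity on a linear scale was deposited, made with MAS5 per the submitters' processing notes, and all 4 columns were used. The MAS5 version, detection calls and background handling were not stated in those notes or in the labels. Of 22690 probe sets, 20380 had 1 gene symbol in the platform annotation, and only these were named, with symbols updated through the RefSeq table of GRCm38.p6. Per gene the brightest probe set was kept, log2(signal + 16) was taken, and the top 60% by mean signal, 7436 genes, were tested in R 4.3.3 with limma 3.58.1 (eBayes with trend). Adjustment was by Benjamini-Hochberg over all of them, with a threshold of 0.05. Adding 16 understates the folds of dim genes. With 2 arrays a group, precision is limited by their number. The method was tested on simulated data with equal noise on every array, whereas the arrays here differed in their Gapdh ratio. The members, lists and alternatives were chosen with earlier results of these data known. The text names all members, all measured chains outside them, and of each partner list the 5 tested genes with the smallest p. Of the marker lists, Kit, Mitf, Emcn, Cldn5, Vwf, Col3a1, the keratinocyte genes, Lyz2 and S100b were chosen after their values were seen. So were Hspg2 and the dim collagen IV chains among the partners. Plots used matplotlib 3.10.9 under Python 3.11.15.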

Additional observations from a re-analysis of the deposited data

How the results depend on the processing

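None of the 7 tested members passed in limma under equal array medians, quantile normalization, a pseudocount of 1 or 64, the mean of probe sets, eBayes without trend or a top 60% filter on mean log2 signal, which was added after the data were seen and called 51 of all genes. Nor did any of the 5 members left by a top 40% filter, which leaves out Lama2 and Nid2, of the 9 without a filter or of 10 member probe sets tested by themselves. At an adjusted p threshold of 0.10, 364 of all 7436 tested genes passed, with 3 of 7 members and 3 of 32 partner or receptor genes. Here and below, these 32 are the 11 tested partners, the 13 receptors, the 7 sugar enzymes of dystroglycan and the netrin Ntng1. Leaving out 1 array at a time gave 0 to 4 members, 0 to 8 partner or receptor genes and 20 to 1360 of all genes, against 71 of all genes with 4 arrays. The lone array of a group is there assumed to vary like the pair of the other group. The median difference of the members lay between -0.98 and -0.64 in those fits, and was -0.98 after quantile normalization. All genes called numbered 26 after quantile normalization, 43 with a pseudocount of 1, 1 without the filter, 20 with the top 40% filter and 30 with every probe set, where 5 member probe sets were at least 2-fold apart with separated groups. Lama4, Lamb1, Lamc1, Nid1 and Nid2 were lower in every setting run that tested them. Leaving out 1 array at a time, Lama2 ran from -0.29 without AhR knockout 2 to 0.32 without AhR knockout 1, and was -0.024 without wild type 1. Lamb2 ran from -0.32 without wild type 2 to 0.59 without wild type 1.

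Both groups have an animal 1 and an animal 2 in their titles, and the labels tie these numbers to no litter, batch or day. The difference between animals 1 and 2 correlated at r = 0.35 between the groups over 7436 genes, which are not independent. With the number as a replicate block, 1406 of all 7436 tested genes passed. Among them were 3 of the 7 members (Lama4, Lamb1 and Nid2) and 8 of the 32 partner or receptor genes. That fit leaves 1 residual degree of freedom.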
